A study of Homo sapiens with 12 samples.

Results

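The miR-99/100 and miR-125 families are related microRNAs (miRNAs, short RNAs that guide the silencing of matching mRNAs), counted here in exosomes, the small vesicles that cells release. The members are every listed mature miRNA named miR-99a, miR-99b, miR-100, miR-125a or miR-125b, from either arm of its hairpin. They number 7 of the 137 miRNAs listed for parental cells and 5 of the 114 listed for CSC-like cells. All 5 belong to the 98 miRNAs that both tables list, so the members are 7 of 153 miRNAs in all. A table lists only miRNAs counted in both of its groups, so miR-99b-3p and miR-125a-5p, listed for parental cells only, have no value for CSC-like cells.

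The cells were MDA-MB-231, an established human line from a breast adenocarcinoma, in 4 groups of 3 exosome libraries each. CSC-like (cancer stem cell-like) cells treated with cisplatin, a platinum drug that crosslinks DNA, were set against untreated CSC-like cells, and parental cells treated with cisplatin against untreated parental cells. The CSC-like cells were sorted from the line, and the marker used for the sort is not given in the sources used here. Treatment was 56 µM cisplatin for 48 h, and all cells grew in serum depleted of exosomes. Libraries held 429, 1877 and 1575 listed counts in CSC-like cisplatin exosomes and 1526, 2172 and 2522 in untreated CSC-like exosomes. They held 6622, 3552 and 3924 in parental cisplatin exosomes and 3527, 2648 and 4005 in untreated parental exosomes. Between replicates 2 and 3 of the CSC-like cisplatin group a chi-square test found no difference beyond sampling noise (1.18 per degree of freedom, p = 0.212). They were counted as 1 sample, which leaves n = 2 in that group. The sources used here do not say that the replicates were separate cultures, so the p-values reflect the spread among libraries, which may be technical. Of 6 miRNAs typical of epithelial cells, 2 were listed, with a summed share of at most 0.373% of any library, and of 8 blood cell and serum miRNAs 3 were listed in each table, with a summed share of at most 0.466%.

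A miRNA recognises its targets mainly through its seed, the bases that follow the first one at its 5′ end. The human genome carries 3 clusters in which a miR-99/100 gene, a let-7 gene and a miR-125 gene follow each other, and each cluster is thought to be transcribed as 1 long RNA. miR-100 and miR-99a are known to target MTOR, the growth-controlling kinase, and miR-125b is known to target several genes of the p53 network. The miR-99/100 and miR-125 seeds differ, so members of a cluster can share a transcript without sharing targets.

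The mature sequences show which members can be told apart by sequencing. They are RefSeq sequences (GRCh38.p14), all 7 identical (with U for T) to those deposited with the counts, with the seed (bases 2 to 8) in capitals.
miR-100-5p: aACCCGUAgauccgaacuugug
miR-99a-5p: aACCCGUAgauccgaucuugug
miR-99b-5p: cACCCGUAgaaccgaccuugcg
miR-125a-5p: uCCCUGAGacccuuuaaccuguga
miR-125b-5p: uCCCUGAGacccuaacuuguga
miR-125b-1-3p: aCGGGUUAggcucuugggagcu
miR-99b-3p: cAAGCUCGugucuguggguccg
The first 3 share the seed ACCCGUA, and both miR-125 5p members share CCCUGAG. Counted from 1 at the 5′ end of miR-100-5p, miR-99a-5p differs from it by A16U alone, while miR-99b-5p differs by A1C, U11A, A16C and U21C. The number of mismatches allowed in counting is not given in the sources used here, so the smaller miR-99a-5p counts are uncertain beside those of miR-100-5p.

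miR-100-5p, at chr11:122152275-122152296 on the minus strand, comes from 1 gene, MIR100, in an intron of the noncoding gene MIR100HG (GENCODE 29). Distances between genes are given here between their mature sequences. On the same strand of chromosome 11, miR-125b-1-3p lies 52484 bases from miR-100-5p and comes from MIR125B1. miR-125b-5p is made both there and from MIR125B2 on chromosome 21, so its counts cannot be assigned to 1 locus. MIR125B2 lies 51130 bases from MIR99A (miR-99a-5p at chr21:16539101-16539122, plus strand), both in introns of MIR99AHG. MIR99B (miR-99b-5p at chr19:51692618-51692639, plus strand) and MIR125A lie 590 bases apart in an intron of the protein-coding gene SPACA6, opposite an exon of the antisense gene SPACA6P-AS. The RefSeq hairpins of the 3 genes whose arms are compared follow, with the listed mature arms in capitals.
MIR100: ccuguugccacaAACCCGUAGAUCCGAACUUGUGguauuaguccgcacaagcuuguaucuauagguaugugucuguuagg
MIR99B: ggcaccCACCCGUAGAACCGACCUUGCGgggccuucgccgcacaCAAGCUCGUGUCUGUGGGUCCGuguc
MIR125B1: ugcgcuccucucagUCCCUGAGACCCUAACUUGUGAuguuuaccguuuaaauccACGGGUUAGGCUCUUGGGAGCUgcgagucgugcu

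The most abundant member, hsa-miR-100-5p, made up nearly all of the family's counts and was the first or second most abundant miRNA in every library. In CSC-like cisplatin exosomes it had 81, 300 and 257 counts, or 18.9%, 16.0% and 16.3% of listed counts. In untreated CSC-like exosomes it had 262, 511 and 329 counts, or 17.2%, 23.5% and 13.05%. These 6 libraries overlap, and the widest exact 95% binomial interval among them, 15.3% to 22.9% for cisplatin replicate 1, belongs to the shallowest library. Intervals here cover counting error only, since PCR copies without molecular identifiers are not independent molecules.

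In parental cisplatin exosomes miR-100-5p had 1430, 568 and 644 counts, or 21.6%, 16.0% and 16.4% of listed counts. In untreated parental exosomes it had 1802, 566 and 1784 counts, or 51.1%, 21.4% and 44.5%. Untreated parental replicates 1 and 3 stand above the other 10 libraries, which lie between 13.05% and 23.5%. Untreated parental replicate 2, with an interval of 19.8% to 23.0%, lies among the treated libraries, so the groups overlap: the highest cisplatin library, with an interval of 20.6% to 22.6%, is just above it. Ordered by mean share, miR-100-5p stood at 17.5 ± 1.93% (SD, n = 2) in CSC-like cisplatin exosomes, 17.9 ± 5.28% (SD, n = 3) in untreated CSC-like, 18.0 ± 3.12% (SD, n = 3) in parental cisplatin and 39.0 ± 15.6% (SD, n = 3) in untreated parental exosomes. The first 3 means in this order differ by less than the spread within each group.

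**Figure D1:**
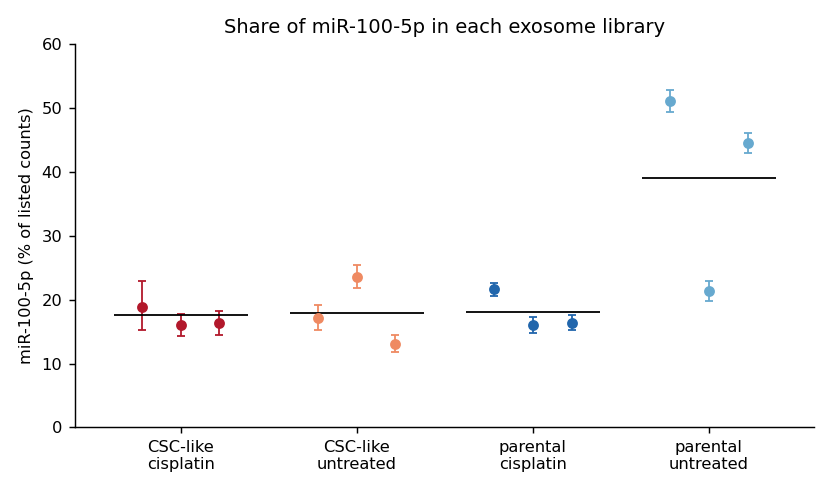
Share of listed counts that are miR-100-5p (y axis, percent) in each of the 12 libraries by group (x axis), replicates 1 to 3 from left to right. Points carry exact 95% binomial intervals, and the horizontal line is the group mean, with replicates 2 and 3 of CSC-like cisplatin counted as 1 sample. Only untreated parental replicates 1 (51.1%) and 3 (44.5%) lie above 23.5%.

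The share of miR-100-5p was set against miR-21-5p, the most abundant miRNA of the other libraries and one found at high levels in many tumours. miR-21-5p took 24.2%, 38.5% and 35.8% of CSC-like cisplatin libraries and 25.6%, 24.1% and 38.8% of untreated CSC-like libraries. It took 28.6%, 34.0% and 33.1% of parental cisplatin libraries and 6.72%, 22.1% and 8.74% of untreated parental libraries. The 2 libraries with the most miR-100-5p were thus those with the least miR-21-5p. Counts of miR-100-5p per count of miR-21-5p were 0.779, 0.416 and 0.456 in CSC-like cisplatin, 0.670, 0.975 and 0.336 in untreated CSC-like, 0.756, 0.470 and 0.496 in parental cisplatin and 7.60, 0.966 and 5.10 in untreated parental libraries. miR-100-5p outnumbered miR-21-5p in untreated parental replicates 1 and 3 and in no other library. Shares of 1 library sum to a fixed total, and with miR-21-5p taken out of that total the mean share of miR-100-5p in parental cisplatin minus untreated parental libraries was -17.3 percentage points, beside -21.0 points with it. Shares measure neither the number of vesicles nor the amount of a miRNA per vesicle. A fall of miR-100-5p cannot be told apart from a rise of other miRNAs.

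**Figure D2:**
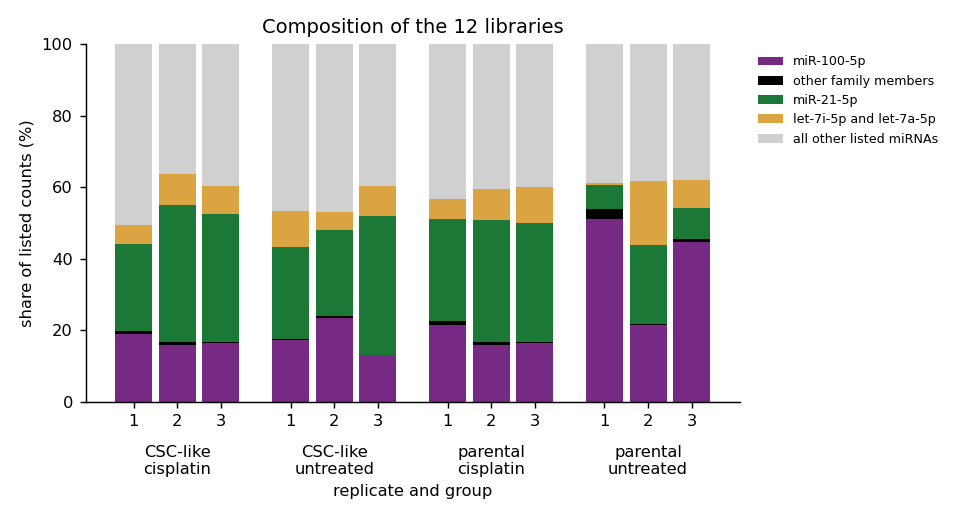
Composition of each library as stacked shares of listed counts (y axis, percent) for replicates 1 to 3 of each group (x axis). miR-100-5p fills 51.1% and 44.5% of untreated parental replicates 1 and 3, where miR-21-5p fills 6.72% and 8.74%.

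Cisplatin was set against no treatment in parental cells first. By edgeR's quasi-likelihood test, miR-100-5p was at a log2 fold change of -1.43 (SE 0.56) with an adjusted p of 0.139, ranked 4 by p among the 37 miRNAs tested, and did not pass the threshold of 0.05. The median log2 fold change of those 37 was -0.27, and 0.01 when libraries were scaled by their totals, with which miR-100-5p was at -1.12. No member passed the test, where 5.41% of the 37 miRNAs did. The mean share in cisplatin minus untreated libraries was -21.0 percentage points, with p = 0.2 by a two-sided exact permutation test (adjusted p = 0.6 over 9 such tests), and 3 samples against 3 cannot give a p below 0.1. The call rested on untreated parental replicate 2: without it edgeR gave a log2 fold change of -1.72 (SE 0.23) and an adjusted p of 4.67e-06, within a range of 4.67e-06 to 0.935 over the alternatives tried. Without that library 8 of 43 miRNAs passed, against 2 of 37 in the main fit. The authors' deposited table gives a signed fold change of -2.16 for cisplatin over untreated cells and an unadjusted p of 0.0224.

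In CSC-like cells miR-100-5p was at a log2 fold change of -0.14 (SE 0.63) for cisplatin against untreated exosomes, with an adjusted edgeR p of 0.990. Its direction was not stable, and leaving out any 1 library turned it positive. Here 3.45% of the 29 miRNAs tested passed. The authors' deposited table gives -1.08 and an unadjusted p of 0.656. The test of whether the response to cisplatin differed between the populations gave a difference of 1.86 (SE 0.76) in log2 fold change, CSC-like minus parental, with an adjusted edgeR p of 0.184. It was 0.98 without untreated CSC-like replicate 1, 1.02 without untreated parental replicate 1, 1.08 without CSC-like cisplatin replicate 3, 1.18 without CSC-like cisplatin replicate 1 and 1.08 with scaling by library totals. At this test's threshold 2.08% of 48 miRNAs passed and no member did, so a difference in response was not shown.

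Untreated CSC-like exosomes were then set against untreated parental exosomes. miR-100-5p was at a log2 fold change of -1.81 (SE 0.63), second by p among 30 miRNAs tested, with an adjusted edgeR p of 0.0726. It did not pass, while 3.33% of the 30 did, and their median was -0.32 (0.14 with scaling by library totals). Fitted with all 4 groups in 1 model, the same contrast was -1.95 (SE 0.53) and passed with an adjusted edgeR p of 0.00591, within 0.00591 to 0.897 over the alternatives. In that model 5 of 48 miRNAs passed for this contrast. Between cisplatin groups miR-100-5p was at 0.07 (SE 0.37) in CSC-like against parental exosomes, with an adjusted edgeR p of 0.903, where 2.38% of 42 passed. The comparisons share groups and so are not independent of each other. Whether both populations were sequenced in 1 run is not given in the sources used here, so run and population cannot be told apart.

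**Figure D3:**
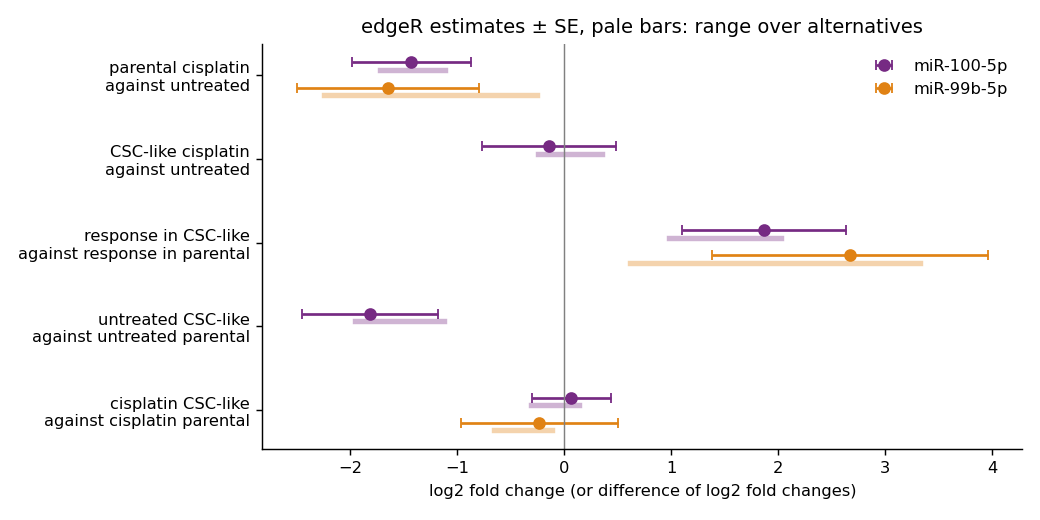
Log2 fold changes of miR-100-5p and miR-99b-5p (x axis; for the response, the difference of 2 log2 fold changes) in the 5 comparisons (y axis). Points and bars are edgeR estimates ± SE, pale bars the range over all alternative settings; miR-99b-5p is missing where it did not pass the count filter. miR-100-5p lies below 0 in parental cisplatin against untreated (-1.43) and in untreated CSC-like against untreated parental exosomes (-1.81), and near 0 in the comparisons within CSC-like cells and between the cisplatin groups.

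hsa-miR-99b-5p, which shares the seed of miR-100-5p, was the second most abundant member. It had 1, 6 and 4 counts in CSC-like cisplatin libraries and 4, 5 and 3 in untreated CSC-like libraries. It had 43, 10 and 8 counts in parental cisplatin libraries and 73, 1 and 25 in untreated parental libraries. The untreated parental libraries span both the highest and the lowest share of the series, 2.07% and 0.0378%, and the groups overlap in every comparison. For each 100 counts of miR-100-5p there were 3.01, 1.76 and 1.24 counts of miR-99b-5p in parental cisplatin libraries, and 4.05, 0.177 and 1.40 in untreated parental libraries. Untreated parental replicate 1 was therefore high and replicate 2 low in miR-99b-5p even beside its sequence relative. The ratio stayed between 0.912 and 2.00 in all 6 CSC-like libraries.

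miR-99b-5p was at a log2 fold change of -1.64 (SE 0.85) in parental cisplatin against untreated exosomes, with an adjusted edgeR p of 0.266, and at -0.25 without untreated parental replicate 1. The difference in response, CSC-like minus parental, was 2.67 (SE 1.29) with an adjusted edgeR p of 0.372, and 0.62 without untreated parental replicate 1. Between the cisplatin groups miR-99b-5p was at -0.23 (SE 0.73), CSC-like against parental, with an adjusted edgeR p of 0.900. It did not pass the count filter of the main fits within CSC-like cells or between the untreated groups and was not tested there. Untreated parental replicate 1 held 73 of the 99 counts of its group. Some alternative settings kept it between the untreated groups, CSC-like against parental. The model over 4 groups gave -3.11 (SE 0.86) and an adjusted edgeR p of 0.00591, where 5 of 48 miRNAs passed. Without untreated parental replicate 2 it was at -2.98 (SE 0.91), with an adjusted edgeR p of 0.0198, where 3 of 32 passed. No untreated CSC-like library held more than 5 counts of miR-99b-5p, so a count filter kept it through parental libraries where it was high. These p-values are therefore no support for a difference. With no filter it was at -2.37 (SE 0.96), with an adjusted edgeR p of 0.453. The other settings that kept it gave negative values that did not pass, with adjusted edgeR p from 0.153 to 0.504. The authors' deposited tables give -2.37 for parental cells (unadjusted p = 0.396) and 1.33 for CSC-like cells (unadjusted p = 0.515).

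The remaining members were near the limit of detection, and none passed the count filter of the edgeR fits. miR-99a-5p had 2, 1 and 0 counts in CSC-like cisplatin, 1, 3 and 1 in untreated CSC-like, 2, 1 and 0 in parental cisplatin and 7, 1 and 3 in untreated parental libraries. miR-125b-5p had 1, 1 and 0 counts in CSC-like cisplatin, 1, 1 and 0 in untreated CSC-like, 1, 6 and 2 in parental cisplatin and 5, 3 and 5 in untreated parental libraries. A count of 0 allows 3 counts, which is a share of up to 0.699% in the shallowest library (429 counts) and 0.0453% in the deepest (6622 counts). miR-125b-1-3p, from the other arm of MIR125B1, had 0, 4 and 2 counts in CSC-like cisplatin, 0, 1 and 0 in untreated CSC-like, 6, 3 and 2 in parental cisplatin and 3, 2 and 2 in untreated parental libraries. miR-99b-3p had 8, 2 and 2 counts in parental cisplatin and 2, 3 and 3 in untreated parental libraries, and miR-125a-5p had 0, 3 and 1 in parental cisplatin and 7, 1 and 1 in untreated parental libraries. No library held more than 8 counts of any of these 5 members, so only large differences between groups were detectable at this depth.

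Of the 7 members listed for parental cells, miR-99a-5p alone had groups that did not overlap, with its 3 cisplatin shares below its 3 untreated shares. Among the 37 tested miRNAs 16.2% did not overlap, 0.0% in that direction. In untreated CSC-like against untreated parental exosomes the groups of miR-125b-5p and miR-125b-1-3p did not overlap and were lower in CSC-like, 2 of 5 members, beside 13.3% of the 30 tested miRNAs in either direction and 0.0% lower. These 3 members had 7 or fewer counts in each library and were not tested. The shares beside them cover only miRNAs that passed the count filter, so they are not a like measure. The nearest shares of the 2 groups were 0.0302% (2 counts) and 0.0378% (1 count) for miR-99a-5p. They were 0.0460% (1 count) and 0.0499% (2 counts) for miR-125b-1-3p, and 0.0655% (1 count) and 0.113% (3 counts) for miR-125b-5p. The groups of no member listed for CSC-like cells failed to overlap between cisplatin and untreated exosomes, where 13.8% of the 29 tested miRNAs did (6.9% lower), or between the cisplatin groups, where 23.8% of the 42 did (14.3% lower). The mean share was lower after cisplatin for 6 of 7 members in parental cells and 1 of 5 in CSC-like cells, beside a median log2 fold change over all tested miRNAs, scaled by library totals as shares are, of 0.01 in parental and -0.17 in CSC-like cells. That median covers only tested miRNAs, and most members were not among them. The tally was not made over all listed miRNAs and was not tested, so it does not set the family apart. In CSC-like cisplatin exosomes miR-99a-5p held 0.466% of the library of 429 counts and a mean of 0.0266% over replicates 2 and 3, beside an untreated mean of 0.0811%. For miR-125b-5p these values were 0.233%, 0.0266% and 0.0372%. The direction of both members thus rested on that library, where they had 2 and 1 counts. The authors' deposited tables list no unadjusted p under 0.05 for a member other than miR-100-5p in parental cells; for miR-99a-5p there it gives a signed fold of -5.44 (p = 0.0938), and for miR-125b-1-3p in CSC-like cells 9.23 (p = 0.0871).

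**Figure D4:**
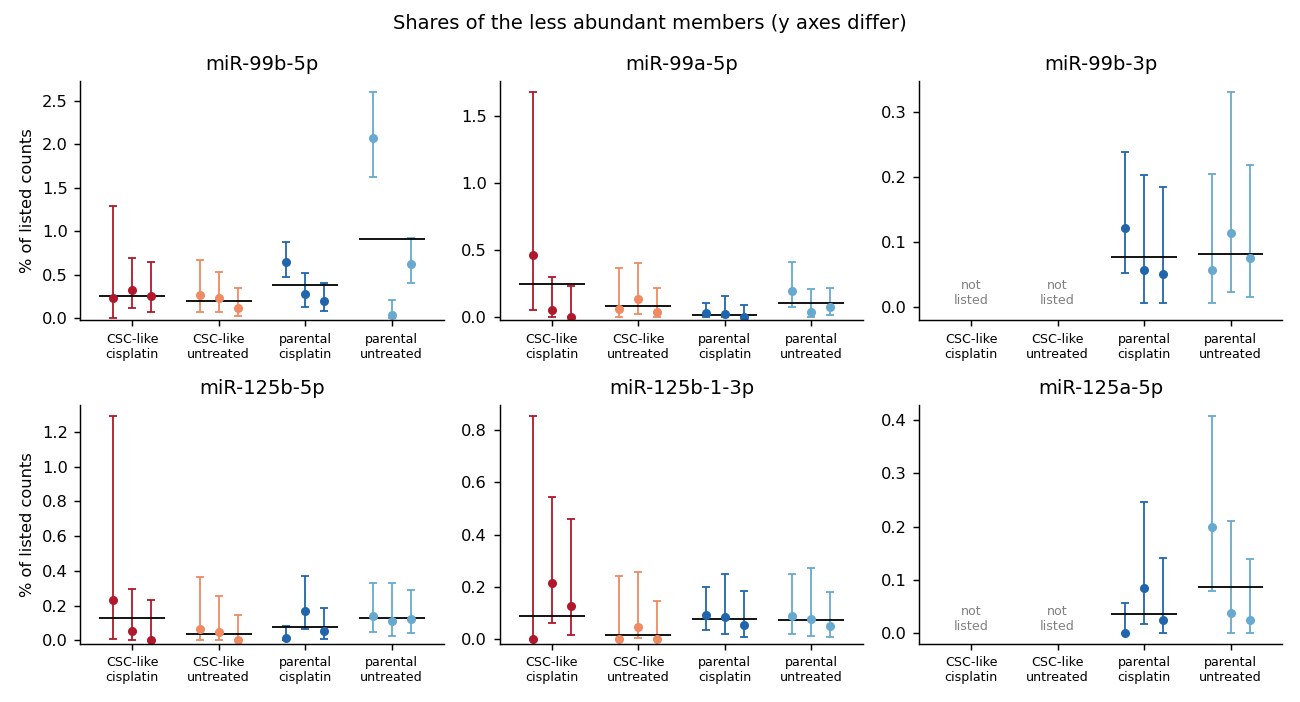
Shares of listed counts (y axes, percent, scaled separately) of the 6 less abundant members in each library by group (x axis), replicates 1 to 3 from left to right, with exact 95% binomial intervals and group means as lines. miR-99b-5p reaches 2.07% in untreated parental replicate 1, and every other member stays below 0.5% in every library; miR-99b-3p and miR-125a-5p are listed for parental cells only.

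Within the family, the share of miR-100-5p lay in a narrow range. miR-100-5p made up 95.3%, 96.2% and 97.7% of family counts in CSC-like cisplatin libraries and 97.8%, 98.1% and 98.8% in untreated CSC-like libraries. It made up 96.0%, 95.8% and 97.7% in parental cisplatin libraries and 94.9%, 98.1% and 97.9% in untreated parental libraries. Of the 2 libraries in which the family was largest, untreated parental replicate 1 (53.8% of listed counts) had the lowest share within the family and replicate 3 (45.5%) lay among the other groups. In parental cells the mean differed by -0.455 percentage points between cisplatin and untreated libraries, with p = 0.8 by a two-sided exact permutation test (adjusted p = 1.0 over 9 tests). In CSC-like cells it differed by -2.10 points with an exact permutation p of 0.1, the smallest that 2 samples against 3 allow (adjusted p = 0.6), and all cisplatin libraries lay below all untreated ones, the nearest being 97.7% and 97.8%. It was -1.28 points without CSC-like cisplatin replicate 1, the library of 429 counts, and -1.20 points over the miR-99/100 5p arms alone. That difference rests on 22 family counts other than miR-100-5p in the cisplatin libraries, against 20 in the untreated libraries. Over both treatments, CSC-like and parental libraries differed by 0.443 points (exact permutation p = 0.595, adjusted p = 1.0).

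**Figure D5:**
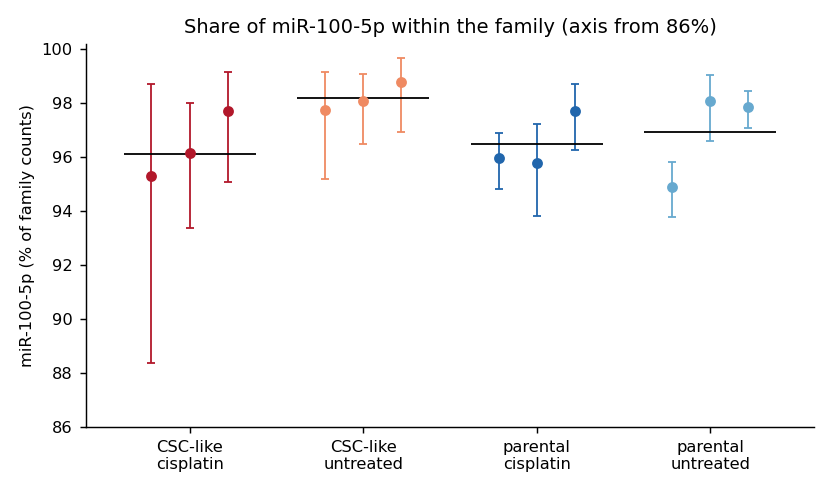
Share of family counts that are miR-100-5p (y axis, percent, from 86) in each library by group (x axis), replicates 1 to 3 from left to right, with exact 95% binomial intervals and group means as lines. All 12 libraries lie between 94.9% and 98.8%.

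Summed over libraries, 5p arms with the miR-99/100 seed held 98.8% of family counts in CSC-like cisplatin, 99.7% in untreated CSC-like, 98.7% in parental cisplatin and 99.1% in untreated parental exosomes. The 5p arms of miR-125a and miR-125b held 0.303% in CSC-like cisplatin, 0.178% in untreated CSC-like, 0.474% in parental cisplatin and 0.512% in untreated parental exosomes, with miR-125a-5p counted for parental cells only. Beside miR-100-5p, the miR-125b members had few counts, of which only miR-125b-1-3p can be assigned to the neighbouring gene MIR125B1: in parental cisplatin exosomes 2642 counts of miR-100-5p stood beside 9 of miR-125b-5p and 11 of miR-125b-1-3p, and in untreated parental exosomes 4152 beside 13 and 7. Counts of different miRNAs also carry the ligation and PCR preferences of the library kit, whose size was not tested.

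The arms of the hairpins were listed unequally. miR-99b gave mostly its 5p arm, with 83.6% of 73 counts in parental cisplatin exosomes (exact 95% interval 73.0% to 91.2%) and 92.5% of 107 counts in untreated parental exosomes (85.8% to 96.7%). Replicate 1 held most of these counts in both groups, with 43 of the 5p and 8 of the 3p arm in cisplatin and 73 and 2 in untreated exosomes. The intervals do not measure the spread among libraries, and a difference between the groups was not tested. In untreated parental replicate 2 the order was turned, with 1 count of the 5p arm and 3 of the 3p arm. miR-125b-5p and miR-125b-1-3p were close to even in parental exosomes over both treatments, with 22 and 18 counts (55.0% from the 5p arm, 38.5% to 70.7%), although the 5p arm has a second gene as a source. No 3p arm of MIR100 or MIR99A was listed in either table.

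The let-7 neighbours of the 3 clusters were compared because they are thought to share primary transcripts with the members. let-7a-5p, which MIRLET7A2 encodes 5685 bases from MIR100 but which comes from 3 genes in all, had 5, 15 and 13 counts in CSC-like cisplatin and 24, 16 and 25 in untreated CSC-like libraries. It had 39, 15 and 24 counts in parental cisplatin and 2, 64 and 171 in untreated parental libraries. The untreated parental libraries with much miR-100-5p thus held both the fewest let-7a-5p counts (2 in replicate 1) and the most (171 in replicate 3). let-7a-5p was at a log2 fold change of -2.29 (SE 1.13) in parental cisplatin against untreated exosomes, with an adjusted edgeR p of 0.244. let-7e-5p, encoded 115 bases from MIR99B, and let-7c-5p, 715 bases from MIR99A and listed for parental cells only, had at most 9 counts in any library.

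miR-10a-5p, a relative of the miR-99/100 miRNAs with the seed ACCCUGU, gives a further scale. It had 25, 14 and 16 counts in parental cisplatin and 16, 7 and 27 in untreated parental libraries, and these groups overlap. Its edgeR log2 fold change was -0.52 (SE 0.57) with an adjusted p of 0.776. miR-10b-5p, listed for parental cells only, had at most 1 count in any library.

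Over the 12 libraries, miRNAs were ranked by how steady their ratio to miR-100-5p was, as the SD of the log2 ratio of the 2 counts. Each count had 0.5 added, and the ranking covered the 27 miRNAs of both tables that had at least 10 counts in at least 6 libraries. A miRNA whose share hardly changes can also have a low SD, so the ranking does not show that a miRNA moved with miR-100-5p. miR-151a-3p had the lowest SD, 0.69, followed by miR-92a-3p (0.93), miR-3960 (0.96) and miR-106b-3p (0.97), all computed within libraries of shared depth. miR-21-5p (1.41) was ranked 17 and the cluster neighbour let-7a-5p (1.69) was ranked 22 of 27. miR-99b-5p had too few counts for this ranking. Even for miR-151a-3p the shares did not move as those of miR-100-5p did: they were 4.12%, 1.35% and 1.22% in parental cisplatin and 2.27%, 1.02% and 1.97% in untreated parental libraries, with an edgeR log2 fold change of -0.03 (SE 1.06, adjusted p = 0.980).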

How the data were processed

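Small RNA from exosomes was sequenced in 12 libraries. Per the labels' protocols, ExoRNeasy extraction was followed by NEB-Next small RNA library preparation. Trimming with cutadapt and quality control with FastQC are named in the submitters' processing notes, and an aligner, mismatch setting, build or miRNA release is not given in the sources used. The deposited tables, 1 per population, hold raw counts per mature miRNA, per the file headers trimmed reads grouped on mature sequences. They also hold the authors' signed fold (a score, negative for a fall) and a p-value from Baggerley's test, per the file headers on untransformed proportions, not adjusted. 1 line in each table was not analysed here.

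Family members and lists were chosen with earlier results of these data known; all members are named. Counts were fitted over whole tables (98 shared miRNAs across populations) with edgeR 4.0.16 in R 4.3.3 (TMM, filterByExpr defaults, quasi-likelihood test, Benjamini-Hochberg adjustment over all miRNAs tested, threshold 0.05). Standard errors were taken from the fold change and F statistic. Shares are of summed listed counts, not of all reads, and were compared by exact permutation tests (SciPy 1.17.1, intervals by Clopper-Pearson). Replicate libraries were compared by chi-square, and those within sampling noise entered as 1 sample. Their counts were summed for the fits, and their shares were averaged. Scripts were tested on simulated data. Alternatives were DESeq2 1.42.0, other scaling and filters, separate libraries, a replicate block, 1 model over 4 groups, other denominators and members, and each library left out.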

Additional observations from a re-analysis of the deposited data

How the results depend on the processing

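Of the calls for members tested in the main fits, leaving out untreated parental replicate 2 changed that of miR-100-5p in parental cells (log2 fold change -1.72, leave-outs -1.72 to -1.28), and the model over 4 groups that between untreated groups (-1.95). With these settings 8 of 43 and 5 of 48 miRNAs passed. For the response, values over all alternatives were 0.98 to 2.03 for miR-100-5p and 0.62 to 3.33 for miR-99b-5p, with no call. For cisplatin against untreated CSC-like exosomes miR-100-5p turned positive with DESeq2 (0.0772), with libraries kept separate (0.21) and with each library left out (0.0132 to 0.36). Between cisplatin groups it turned negative with library totals (-0.0425), no filter (-0.31), at least 15 counts (-0.15), separate libraries (-0.14) and the 4-group model (-0.0876), leave-outs -0.10 to 0.14. Shares of listed counts turned in CSC-like cells without miR-21-5p in the total (0.177 points; leave-outs -2.83 to 2.41) and between cisplatin groups (leave-outs -1.85 to 1.31). Shares of family counts turned in parental cells (leave-outs -1.48 to 0.117), between cisplatin groups (-0.770 to 0.443) and over both treatments: with miR-99/100 5p arms alone (-0.0844), with members of both tables, an alternative chosen after seeing the data (-0.0788), and over leave-outs (-0.0711 to 0.854). The cause was not tested. Counts of all miRNAs called ranged from 0 to 8 (main 2) in parental cells, 0 to 1 (main 1) in CSC-like cells, 0 to 2 (main 1) for the response, 0 to 5 (main 1) between untreated and 1 to 1 between cisplatin groups.

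Same-numbered samples did not deviate together in every pair (correlations 0.407, 0.440 and -0.014 in parental, -0.689, -0.680 and 0.530 in CSC-like cells), and 3 of 6 parental and 1 of 6 CSC-like samples correlated best with their own number, so the numbers were not taken as pairs. With the replicate block, miR-100-5p was at -1.35 (edgeR, adjusted p = 0.367) in parental and 0.29 in CSC-like cells, 1.34 for the response, -1.56 between untreated and -0.14 between cisplatin groups; calls numbered 2, 0, 0, 1 and 1.

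Depth limits all members but miR-100-5p, with 97 or fewer counts in a library for the 6 others together.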
